A study of Mus musculus with 3 samples.

Results

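The chemokine and chemokine receptor genes of mouse skeletal muscle were followed in mFoxO1KO mice and control mice. They were taken as the non-control probes whose gene symbol starts with Ccl, Ccr, Cxcl, Cxcr, Cx3c, Xcr or Xcl. This gave 65 of 39429 probes and 54 of 32395 genes, of which 26 had enough signal to be tested among 17460 genes. The arrays carried no symbol column, so symbols came from matching each probe's accession to a RefSeq table, and Cxcl11, Ccl27b and the Ccl21 genes, for which no probe matched, were not analysed here. The mFoxO1KO mice carry an inducible deletion of FoxO1, a forkhead transcription factor, specific to skeletal muscle. The driver of that deletion is not given in the labels. Control mice received no deletion, and males of the C57BL/6 strain made up both groups. All of them, controls included, ate an AIN93G diet with doxycycline at 0.625 g/kg between the ages of 8 and 14 weeks. Lower-limb muscle RNA of 3 mFoxO1KO and 3 control replicates was hybridised in pairs to 3 Agilent arrays of 2 colours, always with mFoxO1KO RNA in Cy5 and control RNA in Cy3. Because no array had the dyes swapped, genotype and the dye effect of a probe cannot be told apart in any ratio below.

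Chemokines are small secreted proteins that guide leukocytes along gradients, and their receptors are mostly G protein-coupled receptors on the leukocyte surface. CC and CXC ligands are named for the spacing of their first cysteines, and a few ligands, such as the membrane-anchored fractalkine Cx3cl1, depart from both patterns. In muscle, fibres, endothelium, fibroblasts and resident macrophages can release chemokines, and ligands of Ccr2 are known for drawing monocytes into injured muscle.

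Between 56.1% and 56.9% of all probes were well above background in the mFoxO1KO channel, and between 52% and 55.9% in the control channel. Foxo1 itself checked the labels, with log2 ratios of mFoxO1KO over control of -1.50, -2.42 and -2.27 on arrays 1, 2 and 3 (mean -2.06 ± 0.49, SD, adjusted p = 0.0278, and -1.88 with adjusted p = 0.103 without array 2). Its other probe averaged -1.39, and whether either probe lies in the deleted stretch is not known here. The muscle fibre markers had summed intensities of 801166 to 874578 in the mFoxO1KO samples, against 750073 to 799395 in the control samples, so the RNA carried the defining genes of the labelled tissue. Control sample 1 stood apart from the other control samples for the interferon-inducible members described below. Adipocyte markers were the most uneven of the cell type lists, with median log2 ratios of 2.85, 0.22 and 1.80 on arrays 1, 2 and 3.

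Of the 54 genes, 22 were well above background in both channels of every array. They comprised 18 ligand genes (Ccl2, Ccl5, Ccl6, Ccl8, Ccl9, Ccl11, Ccl19, Ccl24, Ccl25, Ccl27a, Ccl28, Cx3cl1, Cxcl9, Cxcl10, Cxcl12, Cxcl13, Cxcl14 and Cxcl16) and 4 receptor genes (Ccr2, Ccrl2, Cxcr4 and Cxcr6). A further 4 genes were above background in every mFoxO1KO sample but not in every control sample. Ccl7 and Cxcl1 were above it only in control sample 1, Ccr8 only in control sample 3, and Ccr10 in none of the control samples.

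Genes that were above background in all samples of neither group were not tested. Ccl12 reached it only in mFoxO1KO sample 2, whereas Ccl17, Ccr7 and Cx3cr1 reached it only in control sample 1, Cx3cr1 through 2 of its 3 probes. Cxcr3, the receptor of Cxcl9 and Cxcl10 on T cells, reached it in mFoxO1KO samples 1 and 3 and in control samples 1 and 2, with ratios of -0.68, -0.02 and 0.18 on the arrays. A further 22 genes were not well above background in any sample. These were Ccl1, Ccl3, Ccl4, Ccl20, Ccl22, Ccl26, Cxcl2, Cxcl3, Cxcl5, Cxcl15, Cxcl17 and Xcl1 among ligands, and Ccr1, Ccr1l1, Ccr3, Ccr4, Ccr6, Ccr9, Cxcr1, Cxcr2, Cxcr5 and Xcr1 among receptors. Several measured ligands therefore had no receptor above background in the same RNA, such as Cxcl13, whose receptor is Cxcr5. Such an absence gives only an upper bound on the receptor's signal.

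**Figure D1:**
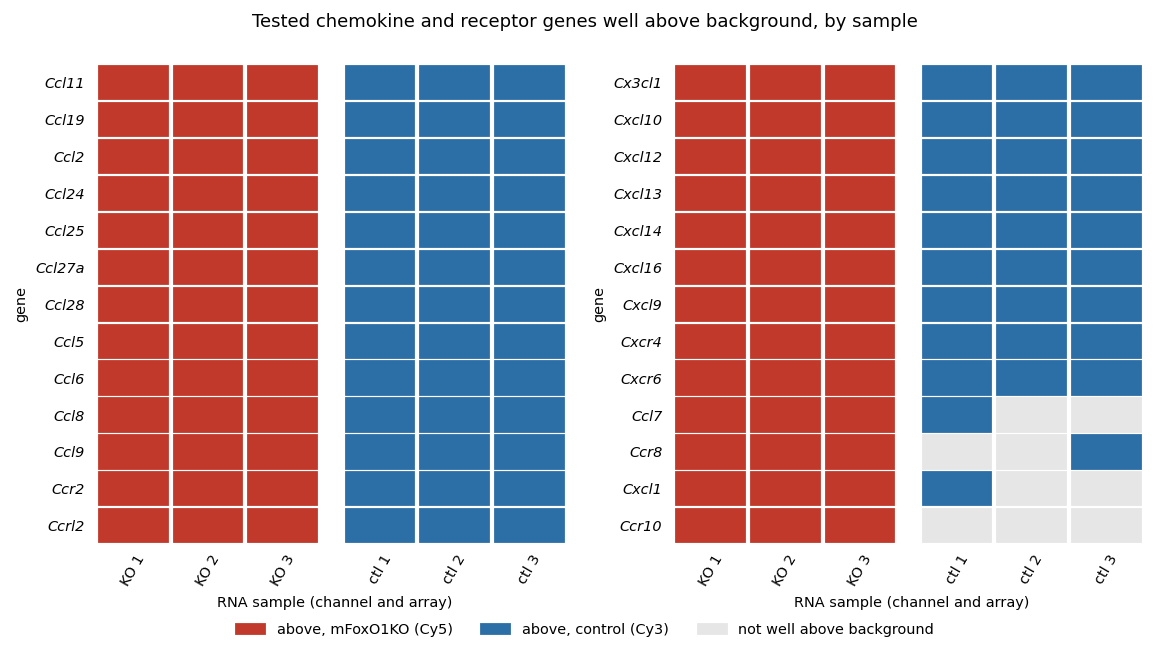
Each row is one of the 26 tested chemokine or receptor genes and each column an RNA sample, with the mFoxO1KO samples (Cy5) left of the control samples (Cy3) in each panel. Filled cells mark genes well above background, which held in all 6 samples for 22 genes and in every mFoxO1KO sample for all 26.

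At an adjusted p under 0.05, 481 of 17460 genes passed, which is 2.75% of those tested. Among the 26 members tested, 1 passed (3.85%), Cxcl13, which rose (2.06% of all genes rose), and none fell (0.699% of all genes fell), so the members' share was close to the background. The members' count depended on the fit. It was 5 in limma with the array as a replicate block of separate channels and 5 with median centring in place of loess. Leaving out array 1 gave 4 (Ccl6, Ccl9, Cxcl10 and Cxcl13), leaving out array 2 gave 1 and leaving out array 3 gave 2 (Ccrl2 and Cxcl13), while the count over all genes was 434, 50 and 154.

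At an unadjusted p under 0.05 there were 10 of the 26 members, Ccl6, Ccl9, Ccl11, Ccl28, Ccr8, Ccr10, Ccrl2, Cx3cl1, Cxcl13 and Cxcl14 (26.8% of all genes). Ccr8, Ccr10, Ccl7 and Cxcl1 entered the test only through the mFoxO1KO channel, so the counts that follow cover the 22 members above background in both channels of every array, beside the 16306 genes of which the same holds. Cxcl13 was the one of the 22 that rose at an adjusted p under 0.05 (4.55%, against 1.69% of the genes). Of the 22, 8 had an unadjusted p under 0.05 (36.4%, against 26.7% of the genes). Their ratios were positive for 7 (31.8%, against 14.7%), and Ccrl2 had a negative one (4.55%, against 12.1%). The mFoxO1KO values lay above all control values for 5 members (22.7%, against 13% of the genes) and below them for 1 (4.55%, against 12.2%), which is 27.3% in either direction, against 25.2%. Ratios had 1 sign on all arrays for 10 members (45.5%), against 52.4% of the genes. Mean ratios were above 0 for 15 members (68.2%), against 50.4% of the genes, and the members' median was 0.05 against 0.0017.

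**Figure D2:**
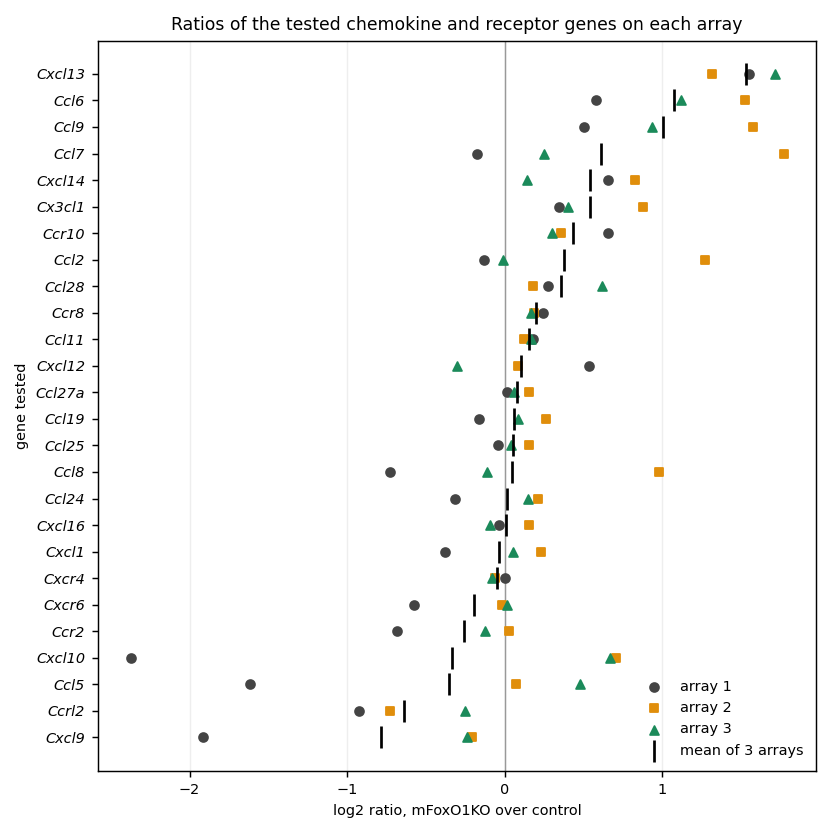
Points are the log2 ratios of mFoxO1KO over control on arrays 1 to 3 for the 26 tested genes, and bars their means. Cxcl13, Ccl6 and Ccl9 lie above 0 on every array, while Cxcl10 and Ccl5 lie far below 0 on array 1 only.

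The members' ratios varied more between arrays than those of most genes. The SD over the 3 arrays had a median of 0.324 for the 26 members, against 0.113 for all genes tested. It exceeded 1 for 3 members (Ccl5, Ccl7 and Cxcl10), against 84 of all 17460 genes. Between arrays, the members' ratios correlated with Pearson's r of 0.37 (arrays 1 and 2), 0.38 (1 and 3) and 0.62 (2 and 3) over 26 genes, a description across genes that share each array. Over all genes tested the same pairs had 0.54, 0.51 and 0.53, so the members' r was lower on both pairs with array 1 and higher on the third. The members' median ratio was -0.04, 0.20 and 0.11 on arrays 1, 2 and 3.

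**Figure D3:**
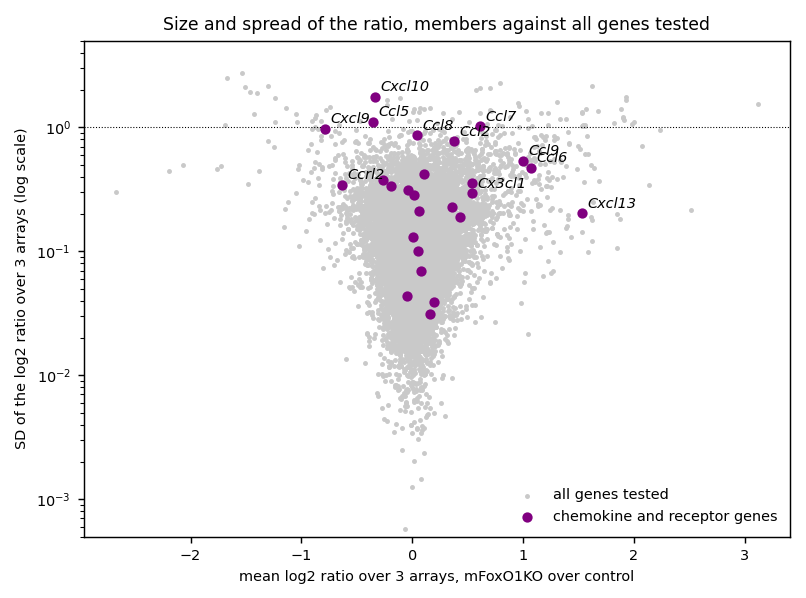
The horizontal axis is the mean log2 ratio of mFoxO1KO over control and the vertical axis its SD over 3 arrays on a log scale, with the 26 members drawn over all 17460 genes tested. Ccl5, Ccl7 and Cxcl10 lie above an SD of 1, while Cxcl13 combines the highest mean of the members (1.53) with an SD of 0.20.

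Among the CXC ligands, Cxcl13, which attracts B cells and helps to organise lymphoid follicles, rose in the mFoxO1KO muscle. Its normalised log2 intensity was 8.35, 8.86 and 8.91 in mFoxO1KO samples 1, 2 and 3, against 6.80, 7.54 and 7.19 in control samples 1, 2 and 3. All mFoxO1KO samples lay above all control samples, and the 3 ratios of 1.55, 1.31 and 1.72 were close to each other. The mean ratio was 1.53 ± 0.20 (SD, n = 3 arrays), or 2.88-fold (limma, adjusted p = 0.0120). It passed in 12 of 13 alternatives, the exception being the deposited log ratio of the scanner software, where the mean was 2.43 with adjusted p = 0.0543. Of 8 B cell markers 2 could be tested, Cd79b (-0.09, adjusted p = 0.348) and Cd22 (0.05, adjusted p = 0.799), and neither passed. Cd79a, Ms4a1, Pax5, Blk and Fcrla were not above background in any sample, and neither were Cr2, Madcam1 and Glycam1 of the follicular stroma list. B cell markers as a list had summed intensities of 784 to 855 in the mFoxO1KO samples and 790 to 917 in the control samples. In whole-muscle RNA such as this, fewer cells of a type and less RNA per cell cannot be told apart, and the same holds for more of either.

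The 250 bases before the Cxcl13 start are shown because this is the member that passed the test, with a match to the NF-kB motif in capitals. They come from RefSeq (GRCm38.p6), chr5:95956689-95956938, plus strand, written 5′ to 3′.
Cxcl13: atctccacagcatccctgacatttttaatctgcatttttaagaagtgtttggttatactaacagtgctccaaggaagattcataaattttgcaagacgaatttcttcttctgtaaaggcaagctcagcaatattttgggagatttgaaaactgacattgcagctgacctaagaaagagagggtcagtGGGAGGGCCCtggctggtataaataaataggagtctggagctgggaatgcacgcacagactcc
The motif searched was GGG, any 5 bases and CC, on both strands, and the match lies 63 to 54 bases before the start. The same letters occur in 45.8% of 32851 mouse promoter windows of this length, and in 26 of the members' 46 windows. Of the members, 40 genes have a window. Neither the STAT motif TTCNNNGAA (7.02% of windows, 4 of the members' 46) nor the forkhead motif GTAAANA (10.9% of windows, 6 of the members' 46) was found here. Matches are a description of the letters and do not show binding.

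Cxcl9 and Cxcl10, both induced by interferon gamma and both ligands of Cxcr3, shared a pattern set by control sample 1. Cxcl10 had log2 intensities of 7.53, 7.31 and 7.60 in mFoxO1KO samples 1 to 3, against 9.90, 6.60 and 6.93 in control samples 1 to 3. Control sample 1 was the highest of the 6, and the other control samples were the lowest. The ratios were thus -2.37, 0.70 and 0.66, with a mean of -0.34 ± 1.77 (adjusted p = 0.775). Without array 1 the mean had the opposite sign, 0.68, and passed (limma, adjusted p = 0.0334), so array 1 decides the direction of Cxcl10.

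Cxcl9 had 7.50, 7.00 and 7.02 in the mFoxO1KO samples, against 9.42, 7.21 and 7.26 in the control samples. Again control sample 1 stood out, while on arrays 2 and 3 the mFoxO1KO value was only slightly the lower one. The mean ratio was -0.79 ± 0.98 (adjusted p = 0.243), and -0.22 (adjusted p = 0.159) without array 1. A second Cxcl9 probe, above background only on array 1, had ratios of -0.82, 0.06 and 0.08.

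The same sample was highest for Ccl5, a CC ligand that T cells and macrophages release. Ccl5 had 7.48, 7.12 and 7.45 in the mFoxO1KO samples, against 9.09, 7.05 and 6.97 in the control samples. Its ratios were -1.62, 0.07 and 0.48 (mean -0.36 ± 1.11, adjusted p = 0.615, and 0.27 with adjusted p = 0.250 without array 1). Irf1, an interferon-induced transcription factor gene from the list of inducers, had 10.51, 10.38 and 9.86 in the mFoxO1KO samples, against 12.84, 10.41 and 10.12 in the control samples. Of the 3 T cell markers tested, Cd2 had -0.53 on array 1, Cd3e -0.03 and Cd4 0.13, and their median was -0.03, 0.06 and 0.16 on the arrays. The untested T cell markers had, on array 1, Lck -0.69, Cd5 -0.37, Cd3g -0.30, Cd3d -0.19, Cd8a -0.16 and Cd8b1 0.11. Over 9 T cell markers the summed intensity was 1072 to 1133 in the mFoxO1KO samples and 1282, 1036 and 1097 in control samples 1 to 3. Control sample 1 was thus the highest here too, while Cd3g, Cd8a and Cd8b1 were not above background in any sample. Over 7 NK cell markers the sum was 1135 to 1236 in the mFoxO1KO samples and 1265, 1077 and 1227 in control samples 1 to 3. Control sample 1 was again the highest, by a small margin. Untested NK genes ranged on array 1 from -0.52 (Gzma) to 0.33 (Prf1), and Ncr1, Klrb1c, Gzmb and Klrk1 were not above background in any sample. Genes at the floor enter both sums, as for the B cell list. The part of these cells in the Cxcl9, Cxcl10 and Ccl5 values was not tested.

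The promoters of Cxcl9 and Cxcl10 are shown because both genes turn on the same control sample. They are RefSeq (GRCm38.p6) windows of 250 bases before the start, chr5:92328080-92328329 for Cxcl9 and chr5:92348890-92349139 for Cxcl10, both minus strand, with NF-kB motif matches in capitals.
Cxcl9: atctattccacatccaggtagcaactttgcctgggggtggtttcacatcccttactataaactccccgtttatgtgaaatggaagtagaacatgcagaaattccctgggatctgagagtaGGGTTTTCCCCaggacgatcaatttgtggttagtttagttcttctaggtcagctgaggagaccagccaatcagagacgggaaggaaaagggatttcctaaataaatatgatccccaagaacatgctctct
Cxcl10: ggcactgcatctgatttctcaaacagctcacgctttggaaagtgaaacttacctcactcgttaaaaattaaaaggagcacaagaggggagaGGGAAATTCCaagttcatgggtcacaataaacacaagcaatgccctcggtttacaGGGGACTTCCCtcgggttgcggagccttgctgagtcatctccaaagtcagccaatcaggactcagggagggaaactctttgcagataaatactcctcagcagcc
Cxcl9 holds 2 overlapping matches between 130 and 120 bases before the start. Cxcl10 holds 3, one at 159 to 150 bases and 2 overlapping at 104 to 94 bases. The STAT and forkhead letters were not found in either window.

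Cxcl14, a CXC ligand of skin, fat and muscle tissue, had 11.76, 12.97 and 11.97 in the mFoxO1KO samples, against 11.11, 12.14 and 11.83 in the control samples. The groups overlapped, although the mFoxO1KO value was the higher one on each array (ratios 0.65, 0.83 and 0.14, mean 0.54 ± 0.36, adjusted p = 0.103). Cxcl1, a neutrophil attractant and the only ligand with an ELR motif that could be tested, had ratios of -0.38, 0.23 and 0.05 (mean -0.03 ± 0.31, adjusted p = 0.888). Cxcl12, the ligand of Cxcr4 that retains haematopoietic cells, had 0.54, 0.09 and -0.31 (mean 0.11, adjusted p = 0.715), and its other probe a mean of -0.12. Cxcl16, which exists as a membrane-bound and a shed form and binds Cxcr6, averaged 0.01 (adjusted p = 0.952).

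Among the CC ligands of monocytes and macrophages, Ccl6 and Ccl9 had the highest mean ratios without passing the test. Both are rodent ligands of Ccr1, and they are neighbours in the RefSeq gene order, in a run with Ccl5, Ccl3 and Ccl4. Ccl6 had 10.35, 11.18 and 10.62 in the mFoxO1KO samples, against 9.77, 9.66 and 9.51 in the control samples. No mFoxO1KO sample overlapped the control samples. The ratios were 0.58, 1.53 and 1.12, with a mean of 1.07 ± 0.47 or 2.11-fold (limma, adjusted p = 0.0562).

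Ccl9 had 9.53, 10.72 and 9.93 in the mFoxO1KO samples, against 9.03, 9.15 and 8.99 in the control samples. Here too the groups did not overlap, and as for Ccl6 mFoxO1KO sample 2 was the highest. The ratios were 0.50, 1.57 and 0.93, with a mean of 1.00 ± 0.54 or 2.01-fold (limma, adjusted p = 0.0734). Without array 1 both passed, with means of 1.32 for Ccl6 (adjusted p = 0.0262) and 1.25 for Ccl9 (adjusted p = 0.0459). Without array 2 the means were 0.85 and 0.72 (adjusted p = 0.173 and 0.174).

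Macrophage markers had mean ratios above 0 for all 9 tested, by the probe that stood for each gene. The smallest belonged to Adgre1 (0.13, adjusted p = 0.629 in limma, other probe -0.06) and Csf1r (0.16, adjusted p = 0.469, other probes 0.09 and 0.10). On array 1 the ratios of Adgre1 (-0.34), Csf1r (-0.15), C1qc (-0.06) and Mrc1 (-0.04) were negative, unlike those of Ccl6 and Ccl9. The median ratios of the 9 markers were 0.05, 0.63 and 0.64 on arrays 1, 2 and 3. The summed intensity over 10 markers was 3801 to 4914 in the mFoxO1KO samples, against 2800 to 3747 in the control samples. Of the 9, Cd14, a co-receptor for bacterial lipopolysaccharide, rose (0.95 ± 0.31, adjusted p = 0.0453), as did Folr2, a folate receptor gene of resident macrophages (0.49 ± 0.13, adjusted p = 0.0490). Neither passed without array 2 (adjusted p = 0.158 and 0.186) or without array 3 (adjusted p = 0.0801 and 0.102). Nor did either pass with the deposited log ratio (0.0676 and 0.0645), with genes above background in both channels alone (0.0577 for both) or in separate channels without a block (0.0549 and 0.0949). C1qa, a complement gene, had 0.52 (adjusted p = 0.0699) and Lyve1, a hyaluronan receptor gene, 0.69 (adjusted p = 0.0790). Cd163 was above background in 2 mFoxO1KO samples and in no control sample. The part of macrophage content in the Ccl6 and Ccl9 values was not tested.

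The promoters of Ccl6 and Ccl9 are shown because these neighbouring genes had like values on each array. They are RefSeq (GRCm38.p6) windows of 250 bases before the start on the minus strand, chr11:83593088-83593337 for Ccl6 and chr11:83578637-83578886 for Ccl9. Capitals mark a forkhead motif match and, nearer the start, an NF-kB motif match in Ccl9.
Ccl6: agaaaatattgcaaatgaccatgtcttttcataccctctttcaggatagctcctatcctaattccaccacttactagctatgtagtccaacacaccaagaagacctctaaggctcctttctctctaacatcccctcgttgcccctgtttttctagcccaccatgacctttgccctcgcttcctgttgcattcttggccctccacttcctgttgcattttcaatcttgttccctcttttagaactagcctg
Ccl9: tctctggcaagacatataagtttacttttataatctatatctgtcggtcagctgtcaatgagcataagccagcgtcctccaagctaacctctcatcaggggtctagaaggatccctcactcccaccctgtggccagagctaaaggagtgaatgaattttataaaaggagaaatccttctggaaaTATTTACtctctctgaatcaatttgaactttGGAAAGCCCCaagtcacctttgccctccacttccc
In Ccl9 the forkhead match, on the opposite strand, lies 66 to 60 bases before the start and the NF-kB match, also on the opposite strand, 35 to 26 bases before it. None of the 3 motifs was found in the Ccl6 window.

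The ligands of Ccr2, which draw monocytes out of the blood, had their highest ratios on array 2. Ccl7 had 6.75, 8.33 and 6.60 in the mFoxO1KO samples, against 6.93, 6.56 and 6.35 in the control samples. Only mFoxO1KO sample 2 was clearly above the others, and 2 of the 3 control samples were not above background. The ratios were -0.18, 1.77 and 0.25 (mean 0.61 ± 1.02, adjusted p = 0.355), of which those on arrays 2 and 3 set a measured signal against one not above background. The mean was 1.52 with the deposited log ratio, which did not pass either, and 0.034 without array 2.

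Ccl2 had 7.20, 8.39 and 6.86 in the mFoxO1KO samples, against 7.32, 7.12 and 6.87 in the control samples. Its ratios of -0.13, 1.27 and -0.01 again set array 2 apart (mean 0.38 ± 0.78, adjusted p = 0.447). Ccl2 was printed on 10 spots of each array, of which 7, 8 and 10 were used, and the ratio of single spots had an SD of 0.0922, 0.0875 and 0.116 within the arrays. Without array 2 the mean was -0.07 (adjusted p = 0.726). Ccl8, a ligand of the same cluster, had 8.74, 8.69 and 7.72 in the mFoxO1KO samples, against 9.47, 7.71 and 7.83 in the control samples. Control sample 1 was its highest sample, as for Cxcl9, Cxcl10 and Ccl5. The ratios of Ccl8 were -0.73, 0.98 and -0.11 (mean 0.05 ± 0.87, adjusted p = 0.942).

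Of the 4 neutrophil markers tested, S100a9 and Camp had their highest ratio on array 2, and Csf3r and Elane on array 1. S100a9, a calcium-binding protein gene of neutrophils and monocytes, had ratios of 0.89, 2.19 and 0.76 (mean 1.28, adjusted p = 0.0874), with only 1 control sample above background. The median of the 4 was 0.39, 0.25 and 0.04 on the arrays. None of the 4 passed, Mpo and Ngp were not above background in any sample, and 9 markers summed to 30836 to 40789 in the mFoxO1KO samples and 28119 to 38761 in the control samples. Csf3r made up most of that sum, so the ranges mostly follow this gene. Its log2 intensity of 14.74 to 15.28 was near that of the muscle fibre gene Myh1 (14.97 to 15.65). Whether its probe reports neutrophils in this RNA is not known here, which also limits the median of the 4. Of the untested markers, S100a8 (0.38, 1.21 and 0.04), Ltf, Retnlg and Ngp had their highest ratio on array 2, and Mpo on array 3. S100a8, Ltf and Retnlg were above background in 2, 1 and 1 mFoxO1KO samples and in no control sample. The part of neutrophils in the Ccl2 and Ccl7 values was not tested.

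**Figure D4:**
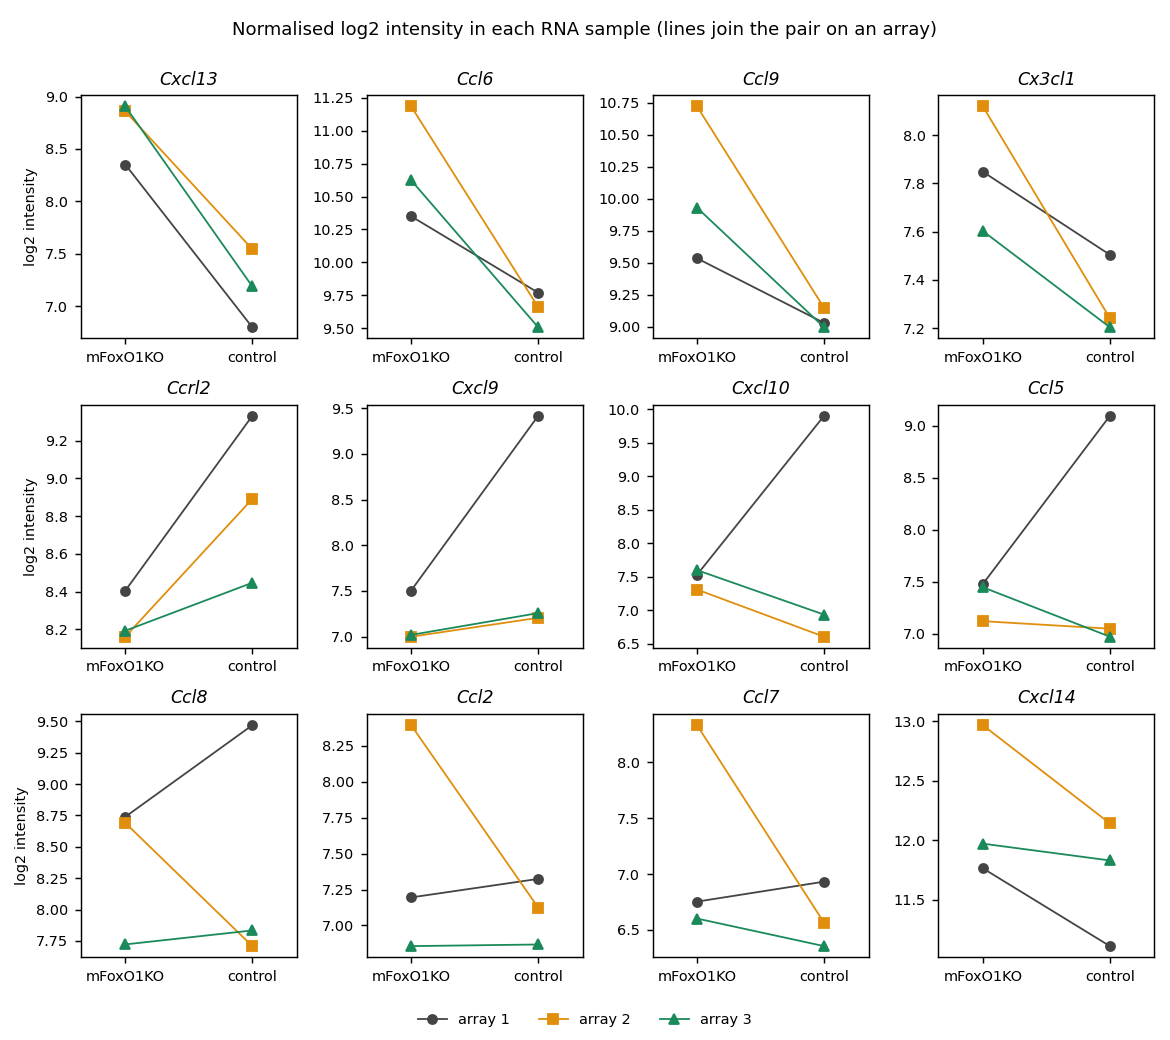
Each panel plots the normalised log2 intensity of a gene in the mFoxO1KO samples (left) and control samples (right), with lines joining the pair hybridised to an array. The groups do not overlap for Cxcl13, Ccl6, Ccl9, Cx3cl1 and Ccrl2. Control sample 1 is highest for Cxcl9, Cxcl10, Ccl5 and Ccl8, and mFoxO1KO sample 2 is highest for Ccl2 and Ccl7.

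Ligands of eosinophils and of barrier tissues differed little. Ccl11, the eosinophil attractant eotaxin, had 9.23, 9.83 and 9.62 in the mFoxO1KO samples, against 9.05, 9.71 and 9.45 in the control samples. The small ratios of 0.18, 0.12 and 0.17 were alike on the arrays (mean 0.16 ± 0.03, adjusted p = 0.162), although the samples of the groups overlapped. Ccl28, a ligand of Ccr10 and Ccr3 at mucosal surfaces, had 7.40, 7.17 and 7.62 in the mFoxO1KO samples, against 7.12, 7.00 and 7.00 in the control samples. Its groups did not overlap, and the ratios were 0.28, 0.18 and 0.61 (mean 0.36 ± 0.23, adjusted p = 0.113).

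The other 4 CC ligands tested, Ccl19, Ccl24, Ccl25 and Ccl27a, had mean ratios between 0.01 and 0.08. Ccl19 guides naive T cells and dendritic cells through Ccr7, Ccl24 attracts eosinophils, Ccl25 attracts thymocytes and gut T cells, and Ccl27a attracts T cells to the skin. Other probes gave means of 0.15 and 0.07 for Ccl19, -0.02 and 0.18 for Ccl27a, and 0.07 for Ccl25, the last not tested. Ccl19 and Ccl27a have near-identical copies in the mouse genome, so their signal may combine several genes.

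Fractalkine, Cx3cl1, is tethered to the surface of endothelial cells and can be shed, and its receptor Cx3cr1 marks monocytes and resident macrophages. Cx3cl1 had 7.85, 8.12 and 7.60 in the mFoxO1KO samples, against 7.50, 7.24 and 7.20 in the control samples. The groups did not overlap, and the ratios were 0.34, 0.88 and 0.40 (mean 0.54 ± 0.29, or 1.45-fold, limma adjusted p = 0.0829). Of 8 endothelial markers none passed, and their median ratios were 0.23, 0.03 and 0.09 on the arrays. Their summed intensity was 14376 to 17942 in the mFoxO1KO samples and 15110 to 22128 in the control samples. Egfl7, with a mean ratio of -0.23, made up most of that sum. Mean ratios were above 0 for 6 of the 8 markers. Pecam1 (0.35, adjusted p = 0.0608) and Tie1 (0.22, adjusted p = 0.0996) had the smallest p, with positive ratios on every array. Whether endothelial content bears on Cx3cl1 was not tested. The 3 probes of Cx3cr1, untested, had mean ratios of -0.19, -0.18 and 0.04.

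No signalling receptor passed in the fit reported. Ccr10, the receptor of Ccl27a and Ccl28, had 6.80, 6.59 and 6.74 in the mFoxO1KO samples, against 6.14, 6.23 and 6.45 in the control samples. No control sample was well above background, so the size of the difference is uncertain. With the control signal, or the dimmest control signal still above background where that was higher, taken for each array, Ccr10 was 1.24-fold higher. This is not a strict lower bound, because Ccr9 was brighter than that dimmest signal in the control samples (6.59, 6.55 and 6.47) without being above background. The estimate is also open to dye bias. The measured ratio, 0.44, had an adjusted p of 0.0726 in limma, which does not test that estimate. Ccr10 was tested only because its mFoxO1KO signal was above background. It passed in 3 alternatives, without background subtraction (adjusted p = 0.0473), with the array as a block (0.0272) and with the deposited log ratio (0.0174), where the ratio was 2.67.

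Ccr8, a receptor of regulatory T cells and other T cells, had 6.71, 6.65 and 6.83 in the mFoxO1KO samples, against 6.47, 6.47 and 6.67 in the control samples. The values lay near the background, and the groups overlapped by a narrow margin (ratios 0.24, 0.19 and 0.16, mean 0.20 ± 0.04, adjusted p = 0.115). Its other probe, never above background, averaged -0.10.

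Ccrl2, an atypical receptor that binds chemerin and does not signal by G proteins, had the one negative ratio with an unadjusted p under 0.05. It had 8.41, 8.16 and 8.19 in the mFoxO1KO samples, against 9.33, 8.89 and 8.45 in the control samples. All mFoxO1KO samples lay below all control samples, with ratios of -0.93, -0.73 and -0.25. The mean was -0.64 ± 0.35, which leaves 64.3% of the control signal (adjusted p = 0.0795 in limma), and it passed only without array 3 (-0.83, adjusted p = 0.0464).

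Ccr2, the receptor by which inflammatory monocytes follow Ccl2, had 6.55, 6.82 and 6.64 in the mFoxO1KO samples, against 7.23, 6.79 and 6.77 in the control samples. Control sample 1 was again the highest (ratios -0.68, 0.03 and -0.13, mean -0.26, adjusted p = 0.317). Cxcr6, a receptor of effector T cells for Cxcl16, had 6.89, 6.93 and 6.83 in the mFoxO1KO samples, against 7.47, 6.95 and 6.81 in the control samples. It too was highest in control sample 1 (mean -0.19, adjusted p = 0.401), and the ratios of its other probe were -0.40, -0.01 and 0.16. Cxcr4, the receptor of Cxcl12, had 6.97, 6.92 and 6.85 in the mFoxO1KO samples, against 6.97, 6.99 and 6.94 in the control samples. Its groups overlapped, and its ratio averaged -0.05 ± 0.04 (adjusted p = 0.607).

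Members of the family that carry other names were taken from a separate list, of which 6 of 8 could be tested. All 6 had mean ratios above 0 (median 0.38), and 1 rose. This was Ackr2, a scavenger receptor that internalises inflammatory CC chemokines. Ackr2 had 8.25, 9.10 and 8.66 in the mFoxO1KO samples, against 7.79, 8.35 and 7.84 in the control samples. The groups overlapped, but the ratios of 0.45, 0.75 and 0.82 were alike (mean 0.67 ± 0.20, or 1.60-fold, adjusted p = 0.0462). It did not pass without array 2 (adjusted p = 0.177), without array 3 (0.0829), with the deposited log ratio (0.0812), with genes above background in both channels alone (0.0577) or in separate channels without a block (0.205). Ackr1, which carries chemokines across venules, had 0.59, 0.75 and 0.30 (mean 0.55 ± 0.23, adjusted p = 0.0630), and Ackr3, a scavenger of Cxcl12, averaged 0.26 (adjusted p = 0.186). Pf4, a CXC chemokine of platelets that keeps its older name, averaged 0.30 (adjusted p = 0.272).

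Genes that act with the receptors gave no calls. Of 16 genes of G protein and phosphoinositide signalling none passed, and the smallest p belonged to Gnb1, a G protein beta subunit gene (0.40, adjusted p = 0.0536, other probe 0.12), and Plcb3, a phospholipase C gene (0.20, adjusted p = 0.109). Of 10 desensitisation genes none passed, with Rgs2 at 0.69 (adjusted p = 0.0996, other probe 0.05) and Rgs3 at 0.87 (adjusted p = 0.126, other probes 0.13 and 0.09), both regulators that shorten G protein signalling. Of 10 adhesion genes none passed, with the integrin gene Itgb1 at 0.32 (adjusted p = 0.0709, other probe 0.16) and Vcam1, which holds leukocytes to endothelium, at 0.41 (adjusted p = 0.0972). None of 8 genes of chemokine processing and binding passed, although all 8 means were above 0. The heparan sulphate carrier gene Sdc4 had 0.56 (adjusted p = 0.0560), and the protease gene Mmp2, whose product cleaves chemokines, 0.33 (adjusted p = 0.0806).

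Inducers of chemokine transcription did not pass either, in 15 genes tested. Rela, a subunit gene of NF-kB, averaged -0.27 (adjusted p = 0.0800) and Nfkbia, the gene of its inhibitor, 0.32 (adjusted p = 0.0991). Tnf, Il1a and Il1b, the cytokines that start much of chemokine transcription, were not above background in any sample.

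Of the remaining cell type lists, the mast cell and eosinophil list had 1 of 3 tested genes higher, the mast cell protease gene Mcpt4 (0.41 ± 0.06, adjusted p = 0.0485), which lost its call when any 1 array was left out (adjusted p = 0.0545 to 0.196) and in 8 of 13 alternatives in all. The list's sums were 903 to 1095 in the mFoxO1KO samples and 821 to 934 in the control samples, and Siglecf, Prg2 and Epx of eosinophils were not above background in any sample. Among 4 dendritic cell genes none passed, with Clec10a, a lectin gene shared with macrophages, at 0.77 (adjusted p = 0.0688), and Clec9a not above background in any sample. The single NK cell gene tested, Nkg7, averaged -0.01 (adjusted p = 0.970), and Ltb and Cd83, tested from the follicular stroma list, did not pass. Fibroblast genes, 8 tested, also gave no calls, with median ratios of 0.20, 0.13 and 0.13 on the arrays. Adipocyte genes gave no call among 7, with summed intensities of 50146 to 125491 in the mFoxO1KO samples, against 13291 to 41156 in the control samples, so these sums did not overlap. Of 9 muscle fibre genes, the myoglobin gene Mb rose (0.57 ± 0.14, adjusted p = 0.0449), a call lost without any 1 array (adjusted p = 0.0569 to 0.177), with the deposited log ratio (0.0844) and with genes above background in both channels alone (0.0577). The part of fat in any chemokine value was not tested.

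**Figure D5:**
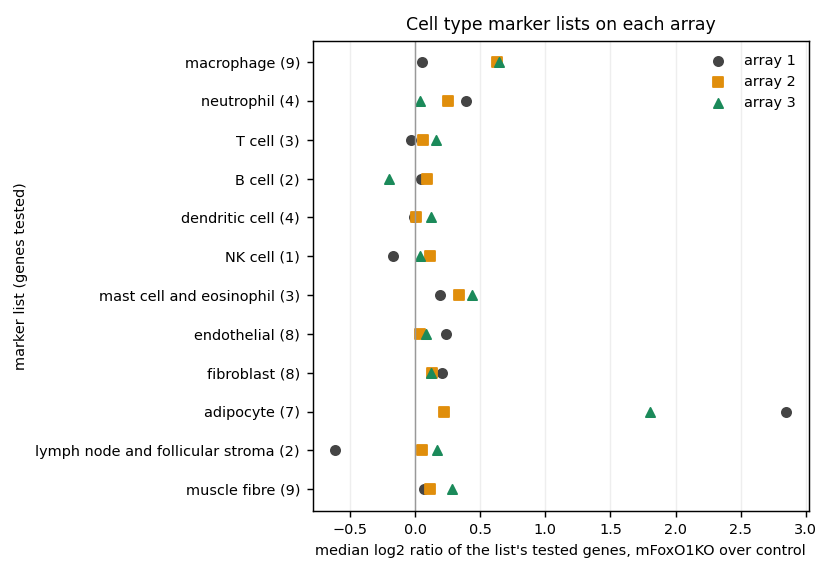
The horizontal axis is the median log2 ratio of mFoxO1KO over control of the tested genes of each cell type list, with the number tested in brackets and a point per array. Macrophage medians were 0.05, 0.63 and 0.64 on arrays 1 to 3, and adipocyte medians 2.85, 0.22 and 1.80.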

How the data were processed

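RNA of 3 mFoxO1KO and 3 control muscles was measured on 3 Agilent arrays of 2 colours; per the labels, the amplification kit took 0.2 µg of RNA, and nothing states whether a replicate is 1 mouse or a pool. The deposited files hold spot and background median intensity values as scanned, and processed intensities and log10 ratios that the authors' Feature Extraction software had corrected for background and dye. That software is version 11.5.1.1 per the file headers and 9.3.2.1 per the submitters' processing notes. The deposited well-above-background, saturation and outlier flags were used as given. Each array held 44397 spots, controls included. No spot was saturated, and 281 to 319 non-control spots per array were left out as outliers.

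In limma 3.58.1 (R 4.3.3), normexp with an offset of 50 removed the background from the median intensities, loess within each array gave control spots no weight, and spots were averaged per probe. Intensities given per sample are log2 values after loess and Aquantile, which leaves ratios as they are. A probe was kept if at least a 0.5 share of its spots was well above background in the same channel on all 3 arrays, and the brightest probe stood for a gene. Of 39429 probes, 27508 (69.8%) took a RefSeq symbol (GRCm38.p6) through their accession without its version. The ratio was tested against 0 by a two-sided test (lmFit, eBayes), adjusted by Benjamini-Hochberg over 17460 genes and a threshold of 0.05. ± is the SD over arrays. The fit was tested on simulated data. The channels are paired by the shared array (consensus correlation 0.417).

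Median signals were 99 to 102 against a background of 50.5 to 52 for mFoxO1KO, and 90.5 to 97 against 35.5 to 38 for control. The number of arrays limits precision, and p-values weigh a mean ratio against its spread over these arrays, as moderated by eBayes. Values on every array were given for members past the threshold, those with an unadjusted p under 0.05, and the 8 highest and 8 lowest mean ratios. From the other lists, genes past the threshold and up to 2 more by p were named. Irf1, Cd4, Csf3r, Elane, S100a8, Ltf, Retnlg, Egfl7, Cd163 and Pf4 were named after their values were seen. So were Lck, Cd5, Cd3d, Gzma, Prf1, Adgre1, Csf1r, Mrc1, C1qc and Myh1. Some results of single genes are not reported here. Members and lists were chosen with earlier results of these data known. The alternatives covered background, dye normalisation, filter, probe choice, variance model, separate channels and each array left out.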

Additional observations from a re-analysis of the deposited data

How the results depend on the processing

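Cxcl13 kept its direction in all 13 alternatives and its call in 12, with adjusted p of 2.55e-05 to 0.0543. The count over all genes, 481, became 200 (164 higher, 36 lower) with the deposited log ratio, 1205 (1154 higher, 51 lower) with median centring, 55 with probes above background in both channels, 747 without a filter, 216 in separate channels with no replicate block and 1652 (1043 higher, 609 lower) with the array as a replicate block. Leaving out 1 array gave 50 to 434. Members called, 1 in the fit reported, were 2 without background subtraction (Ccr10 and Cxcl13), 2 without a filter (Ccl6 and Cxcl13), 5 with median centring (Ccl6, Ccl9, Cx3cl1, Cxcl13 and Cxcl14), 5 with the replicate block (Ccl6, Ccl9, Ccr10, Cx3cl1 and Cxcl13), and 1 to 4 with 1 array left out. The deposited log ratio called Ccr10 (2.67) in place of Cxcl13. The members' median of 0.0672 became 0.228 with median centring, which raised the median of all genes to 0.156, and -0.0231 to 0.176 with 1 array left out. Signs turned with the deposited log ratio for Cxcl1 (0.15), Cxcl10 (0.14) and Cxcl16 (-0.13). With 1 array left out, the range ran across 0 for Ccl5 (-0.77 to 0.27), Cxcl1 (-0.17 to 0.14), Cxcl10 (-0.86 to 0.68) and Cxcl12 (-0.11 to 0.31), which turned without replicate 1. It did so for Ccl2 (-0.070 to 0.63), Ccl8 (-0.42 to 0.44), Ccl19 (-0.042 to 0.17), Ccl24 (-0.085 to 0.18), Ccl25 (-0.0044 to 0.096) and Cxcl16 (-0.065 to 0.058), which turned without replicate 2, Ccl24 also without replicate 3 (-0.053). For the deposited log ratio and median centring the cause was not tested. Signals near background limit Ccr8, Ccr10, Ccl7, Cxcl1 and the untested members.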
